A study of Rattus norvegicus with 24 samples.

Results

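The miR-29 family was followed in peripheral blood mononuclear cells (PBMC, the lymphocytes and monocytes of blood) of rats with and without collagen-induced arthritis. Its members on the array were rno-miR-29a, rno-miR-29b and rno-miR-29c, chosen as the miRNA entries that carry exactly these names. They are 3 of the 677 miRNAs measured, and each was detected on all 24 arrays. The series holds 12 groups of female Wistar rats with 2 one-colour Agilent miRNA arrays per group. Ages are not given in the sources used here.

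Collagen-induced arthritis (CIA) is a model of rheumatoid arthritis in which rats are immunised with bovine collagen in adjuvant. Healthy animals (NOCIA, called NORA in the labels) received no collagen and were sampled before therapy, at 1 hour and at 34 days. Untreated arthritic animals (CIA, called RA in the labels) were sampled before therapy only. All animals of the other arms were arthritic and were sampled at 1 hour and at 34 days. The MS arm (AP in the labels) received mechanical stimulation with a needle under the skin, the MTX arm received methotrexate, an anti-rheumatic drug, and the PLA arm received saline as its placebo. The ANE arm received no therapy and was put under isoflurane at blood sampling, where MS, MTX and PLA animals were given ether. All animals were shaved, and they were killed at sampling, so a difference between times is a difference between animals. The NOCIA arrays at 34 days were grouped by their title, because the lines of their description disagree between 1 hour and 34 days.

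miRNAs are short RNAs that pair with mRNAs through bases 2 to 8, the seed, and lower the output of those mRNAs. The miR-29 family is known for repressing collagens and other extracellular matrix proteins, and its loss in fibroblasts is linked to fibrosis. In T cells it is known to restrain T-bet and Eomes, which are transcription factors of the T helper 1 programme, and interferon gamma.

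All 3 members were matched by name to the RefSeq miRNA table (build GRCr8), where they carry the suffix -3p. The mature sequences are shown because the members share a seed and differ by few bases, which bears on how far one probe set can tell them apart. Capitals mark the seed.
rno-miR-29a: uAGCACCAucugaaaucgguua
rno-miR-29b: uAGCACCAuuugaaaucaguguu
rno-miR-29c: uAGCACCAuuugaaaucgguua
Of the 693 mature sequences in that table only these 3 carry the seed AGCACCA. Counted from 1 at the 5′ end, rno-miR-29a and rno-miR-29c differ by the single substitution C10U, with rno-miR-29a as the reference. From rno-miR-29a to rno-miR-29b the substitutions are C10U, G18A, U21G and A22U, and rno-miR-29b has 23 bases against 22. From rno-miR-29c to rno-miR-29b they are G18A, U21G and A22U. Whether a probe for one member also takes up another was not tested. Differences and likenesses between rno-miR-29a and rno-miR-29c carry that limit.

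The family comes from 2 places in the genome. Mir29a (chromosome 4, positions 60617955 to 60618042) and Mir29b1 (60618334 to 60618414) lie on the minus strand with 291 bases between them. Mir29b2 (chromosome 13, positions 109098831 to 109098911) and Mir29c (109099359 to 109099446) lie on the plus strand with 447 bases between them, inside the annotated extent of the long noncoding RNA LOC102550527. The hairpins of Mir29b1 and Mir29b2 are shown because they differ in the loop and the other strand yet release the same rno-miR-29b, which capitals mark.
Mir29b1: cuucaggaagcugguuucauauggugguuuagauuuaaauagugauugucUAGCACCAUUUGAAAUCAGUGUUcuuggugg
Mir29b2: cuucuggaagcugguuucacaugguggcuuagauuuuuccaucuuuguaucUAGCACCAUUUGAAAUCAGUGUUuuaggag
The signal of rno-miR-29b is thus the sum over both places, whereas rno-miR-29a is annotated on chromosome 4 and rno-miR-29c on chromosome 13.

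Values are log2 of the total intensity of a miRNA after each array was scaled to the same 75th percentile over the 132 miRNAs detected on all 24 arrays. The probes of different miRNAs have their own brightness, so levels are compared between groups for 1 miRNA and never between miRNAs. Before scaling, the total intensity of rno-miR-29a ran from 4073 to 8944 over the 24 arrays. That of rno-miR-29b ran from 1803 to 6698, and that of rno-miR-29c from 402 to 1092. Every one of the 480 spots of each member lay well above background and none was saturated. Between 145 and 207 miRNAs were detected per array, and their summed intensity ran from 137544 to 519917.

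For rno-miR-29a the log2 levels before therapy were 12.47 and 12.52 in NOCIA and 13.08 and 13.00 in CIA. Both CIA arrays lay above all 22 other arrays, of which the highest was at 12.95. That is close to the lower CIA array, where the within-group SD, pooled over the 12 groups, was 0.38. How many of all miRNAs were set apart in this way was not counted. At 1 hour the levels were 12.87 and 12.55 in NOCIA, 11.61 and 12.91 in MS, 12.85 and 12.89 in MTX, 12.37 and 12.62 in ANE, and 12.84 and 12.02 in PLA. The MS and PLA replicates thus spanned most of the range of the series, while MTX replicates were close together. At 34 days the levels were 12.66 and 12.44 in NOCIA, 11.88 and 12.59 in MS, 12.40 and 12.75 in MTX, 12.55 and 12.95 in ANE, and 12.94 and 12.91 in PLA. After scaling, the lowest levels of all were those of the first MS array at 1 hour, the first MS array at 34 days and the second PLA array at 1 hour. Before scaling these arrays stood at 6909, 8287 and 4685, where the median over the 24 arrays was 6460. The low rank of both MS arrays thus appears only with scaling.

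For rno-miR-29b the log2 levels before therapy were 11.29 and 11.35 in NOCIA and 11.91 and 11.53 in CIA. The CIA arrays again lay above the NOCIA arrays, and 13 of the 22 arrays of other groups lay below both of them. At 1 hour the levels were 11.75 and 11.40 in NOCIA, 11.18 and 11.68 in MS, 11.57 and 11.53 in MTX, 11.28 and 11.44 in ANE, and 11.68 and 11.29 in PLA. At 34 days they were 11.43 and 11.40 in NOCIA, 11.58 and 11.49 in MS, 11.36 and 11.67 in MTX, 11.49 and 11.66 in ANE, and 11.58 and 11.67 in PLA. The whole range over the 24 arrays was 0.73, against 1.47 for rno-miR-29a. The first MS array at 34 days, low in rno-miR-29a, was above 15 arrays in rno-miR-29b.

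For rno-miR-29c the log2 levels before therapy were 9.13 and 9.23 in NOCIA and 9.62 and 9.33 in CIA. At 1 hour they were 9.45 and 9.35 in NOCIA, 8.53 and 9.69 in MS, 9.58 and 9.50 in MTX, 9.14 and 9.39 in ANE, and 9.68 and 8.94 in PLA. At 34 days they were 9.39 and 9.15 in NOCIA, 8.96 and 9.20 in MS, 9.10 and 9.70 in MTX, 9.31 and 9.62 in ANE, and 9.63 and 9.44 in PLA. After scaling, the 3 lowest arrays were the same as for rno-miR-29a, and the range was 1.17. Before scaling the first MS array at 34 days was the highest of all in rno-miR-29c, at 1092.

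**Figure D1:**
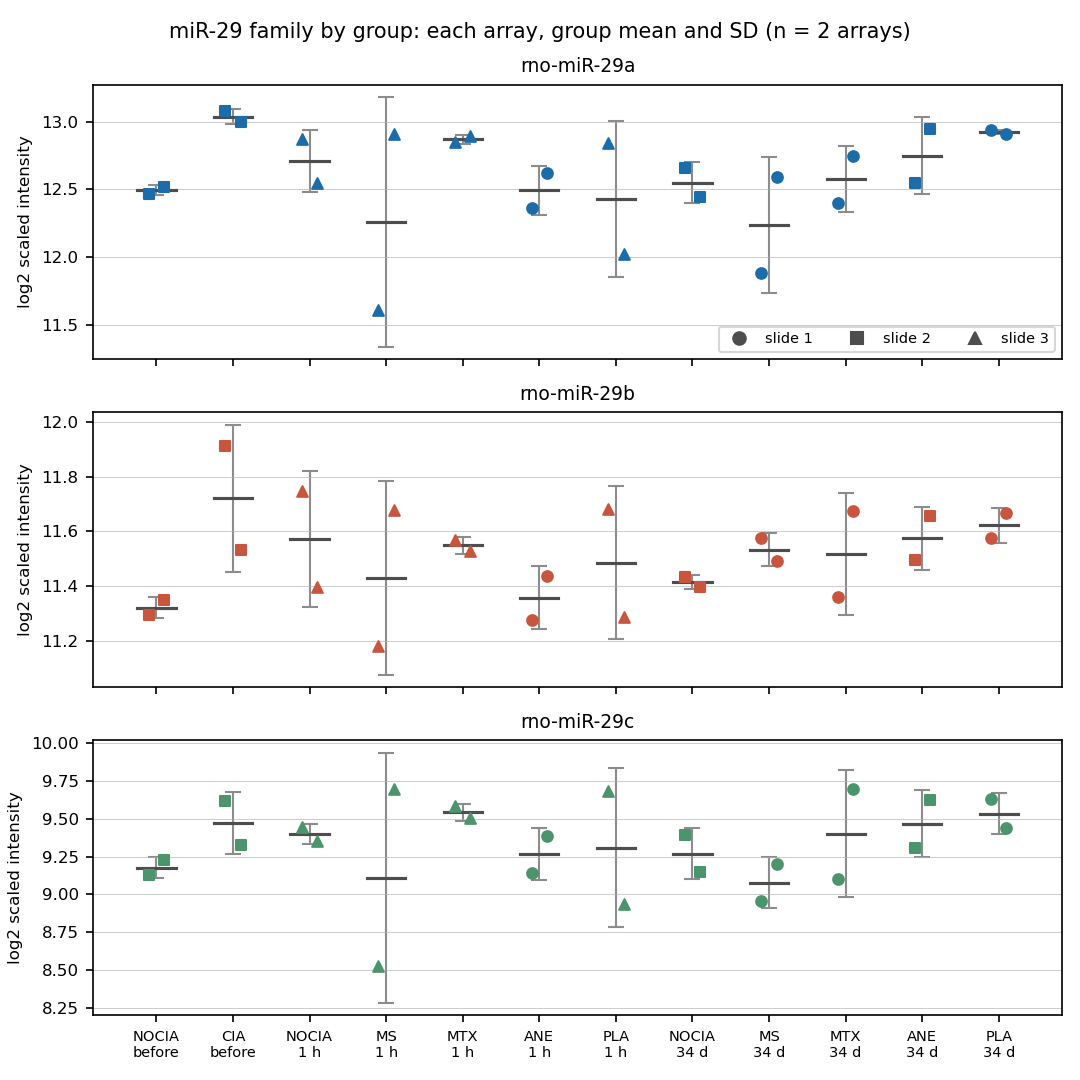
Log2 scaled intensity of each member (vertical axis) in the 12 groups (horizontal axis), with 1 symbol per array, a line at the group mean and bars of 1 SD (n = 2 arrays). Symbol shape gives the slide; for rno-miR-29a the CIA arrays before therapy stand highest and 1 array each of MS at 1 hour, MS at 34 days and PLA at 1 hour stand lowest.

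The order of the groups was set by steps smaller than the pooled spread between replicates. The within-group SD, pooled over the 12 groups, was 0.38 for rno-miR-29a, 0.19 for rno-miR-29b and 0.33 for rno-miR-29c. For rno-miR-29a the order began with CIA before therapy (13.04 ± 0.06, SD, n = 2), PLA at 34 days (12.92 ± 0.02) and MTX at 1 hour (12.87 ± 0.03). It ended with PLA at 1 hour (12.43 ± 0.58), MS at 1 hour (12.26 ± 0.92) and MS at 34 days (12.24 ± 0.50). For rno-miR-29b CIA before therapy was highest (11.72 ± 0.27) and NOCIA before therapy lowest (11.32 ± 0.04). For rno-miR-29c MTX at 1 hour was highest (9.54 ± 0.06) and MS at 34 days lowest (9.08 ± 0.17). In each of these orders all 11 steps between neighbours were smaller than the pooled SD. In rno-miR-29a the CIA arrays before therapy did not overlap those of PLA at 34 days or those of MTX at 1 hour. The steps between these 3 groups were 0.11 and 0.05. Of all miRNAs tested, 26.7% did not overlap between PLA at 34 days and CIA before therapy. Between MTX at 1 hour and CIA before therapy the share was 26.2%. From the highest to the lowest group the distance was 0.80 for rno-miR-29a, 0.40 for rno-miR-29b and 0.46 for rno-miR-29c. Among the 132 miRNAs detected on all arrays 86 had a smaller pooled SD than rno-miR-29a, 79 a smaller one than rno-miR-29c and 30 a smaller one than rno-miR-29b.

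The groups were compared with limma, in 1 fit of 12 group means over the 210 miRNAs detected on at least 3 arrays, and a call is a Benjamini-Hochberg adjusted p under 0.05 over those 210. Each group lay on 1 of 3 slides, so 10 of the 19 comparisons stayed within a slide and for the other 9 the slide and the groups cannot be told apart. In bulk PBMC fewer cells of a type and less RNA per cell cannot be told apart. None of the members was called in any of the 19 comparisons, and only 1 of the 57 member values had an unadjusted p under 0.05 (limma). Adjusted p-values ran from 0.096 to 1.0. Of the 57 intervals, 1 stays on one side of 0.

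Arthritis before therapy was compared with health within 1 slide. All 3 members stood higher on both CIA arrays than on both NOCIA arrays, and 58.6% of all miRNAs tested were without overlap in one direction or the other. The difference was 0.54 for rno-miR-29a (SE 0.36, 95% interval -0.24 to 1.32, limma adjusted p = 0.94), 0.40 for rno-miR-29b (SE 0.20, -0.02 to 0.82, adjusted p = 0.66) and 0.30 for rno-miR-29c (SE 0.33, -0.40 to 0.99, adjusted p = 0.94). None of the members was called, against 2 of 210 miRNAs (0.952%). The direction was the same under all scalings tried, with rno-miR-29a between 0.34 and 0.75 over the scaling and signal alternatives. Each probe of rno-miR-29b alone gave 0.27 and 0.47. The 5 lymphocyte miRNAs used as markers stood above 0 in the same comparison with a median of 0.22, where the median over all 210 miRNAs was 0.00. The myeloid marker rno-miR-223 stood at -0.28, rno-miR-126 of platelets and endothelium at -0.54 and the 2 erythroid markers at a median of -0.63. None of these markers was called, and their part in the members' values was not tested.

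Healthy animals sampled at the later times were compared with other healthy animals sampled before therapy. At 1 hour the values against NOCIA before therapy, across slides, were 0.22 for rno-miR-29a, 0.25 for rno-miR-29b and 0.22 for rno-miR-29c. None was called, against 5 of 210 miRNAs (2.38%). With the percentile taken over all 677 miRNAs the members stood at -0.19, -0.16 and -0.19, while the median over all 210 miRNAs moved from 0.12 to -0.25. At 34 days, within 1 slide, the members were at 0.06, 0.09 and 0.09, with 2 of 210 miRNAs called (0.952%). Scaling to the median put all 3 below 0.

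At 1 hour each treated arm was compared with CIA before therapy, across slides and with the same pair of CIA arrays each time. The differences of rno-miR-29a were -0.78 in MS (95% interval -1.55 to 0.00, limma adjusted p = 0.37), -0.17 in MTX (adjusted p = 1.0), -0.54 in ANE (adjusted p = 0.35) and -0.61 in PLA (adjusted p = 0.58). Those of rno-miR-29b were -0.29, -0.17, -0.36 and -0.24, and those of rno-miR-29c -0.36, 0.07, -0.21 and -0.16. The share of all 210 miRNAs called was 0% in MS, 1.43% in MTX, 0.476% in ANE and 0.952% in PLA, and no member was among them. Against CIA, the MS arrays at 1 hour did not overlap in 1 member, rno-miR-29a, and in 32.9% of all miRNAs tested. Without the first MS array the MS value of rno-miR-29a was -0.13 (adjusted p = 1.0) and that of rno-miR-29c 0.22. Without the second MS array, rno-miR-29a stood at -1.43 (adjusted p = 0.015) and rno-miR-29c at -0.94 (adjusted p = 0.048), so both calls rest on the lone first array, whose spread is then assumed to be that of the other groups. Without the second PLA array the PLA value of rno-miR-29a was -0.20. All 5 lymphocyte markers stood below 0 in each of these comparisons with CIA, with medians of -1.28 in MS, -0.18 in MTX, -0.82 in ANE and -0.78 in PLA. In the same order rno-miR-223 stood at 0.15, 0.20, 1.06 and 0.38, and rno-miR-126 at 0.95, 0.28, 0.93 and 0.43. The medians of the 2 erythroid markers were -0.01, -0.20, -0.56 and 0.99. None of these markers was called, and their part in the members' values was not tested. Without scaling, the MS values were 0.12 for rno-miR-29a, 0.60 for rno-miR-29b and 0.53 for rno-miR-29c, while the median over all miRNAs moved from 0.00 to 0.79.

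Also at 1 hour, the arms were compared with placebo and placebo with health, all within 1 slide. MS against PLA gave -0.17 for rno-miR-29a, -0.06 for rno-miR-29b and -0.20 for rno-miR-29c. With the percentile taken over all miRNAs these stood at 0.66, 0.77 and 0.63, while the median over all 210 miRNAs moved from -0.22 to 0.54. MS against PLA called 2 of 210 miRNAs (0.952%). MTX against PLA gave 0.44 for rno-miR-29a (95% interval -0.34 to 1.22, limma adjusted p = 0.88), 0.06 and 0.23. Without the second PLA array the first of these was 0.03. PLA against NOCIA gave -0.28, -0.09 and -0.09. The medians of the 5 lymphocyte markers in these comparisons were -0.37 for MS against PLA, 0.60 for MTX against PLA and -0.52 for PLA against NOCIA. In the same order rno-miR-223 stood at -0.23, -0.18 and 0.20, and rno-miR-126 at 0.52, -0.15 and -0.12. The medians of the 2 erythroid markers were -0.99, -1.19 and -0.43. None of these markers was called, and their part in the members' values was not tested. MTX against PLA and PLA against NOCIA called no miRNA (0% of 210), where 5 and 4 had an unadjusted p under 0.05.

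At 34 days the MS arm was compared with CIA before therapy, across slides. It gave the lowest value of rno-miR-29a against CIA, -0.80 (SE 0.36, 95% interval -1.58 to -0.02), which had an unadjusted p of 0.045 and an adjusted p of 0.096 by limma and was not called. In rno-miR-29b the value was -0.19 (adjusted p = 0.48) and in rno-miR-29c -0.39 (adjusted p = 0.35). All 5 lymphocyte markers stood below 0 there too, with a median of -1.29 and none called. The myeloid marker rno-miR-223 was called higher in MS (0.89, limma adjusted p = 0.038). Not called were rno-miR-126, at 1.17, and the 2 erythroid markers, at a median of -0.28. Their part in the members' values was not tested. In the same comparison 40 of 210 miRNAs were called (19.0%), of which 33 were higher in MS, and the median over all 210 was 0.16. That count was 0 without the first MS array and 103 without the second, 0 or 1 without a CIA array, 0 without a NOCIA array of before therapy or of 34 days, 62 without an MTX array of 34 days and 83 without an MS array of 1 hour. The MS and CIA arrays did not overlap in rno-miR-29a and rno-miR-29c, nor in 68.6% of all miRNAs. Without the first MS array rno-miR-29a stood at -0.44 (adjusted p = 0.58), and without the second at -1.15 (adjusted p = 0.039). Leaving out either MS array of 1 hour kept -0.80 and gave an adjusted p of 0.037. Without scaling the values turned to 0.39, 1.01 and 0.80 for rno-miR-29a, rno-miR-29b and rno-miR-29c, of which the last 2 were called, while the median over all miRNAs was 1.32.

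In the remaining arms at 34 days the values of rno-miR-29a against CIA before therapy were -0.46 in MTX (adjusted p = 0.79), -0.29 in ANE and -0.11 in PLA. Those of rno-miR-29b were -0.20, -0.15 and -0.10, and those of rno-miR-29c -0.07, -0.01 and 0.06. All 5 lymphocyte markers stood below 0 in these comparisons as well, with medians of -0.62 in MTX, -0.46 in ANE and -0.16 in PLA. In the same order rno-miR-223 stood at 0.58, 0.21 and 0.49, and rno-miR-126 at 0.75, 0.77 and -0.12. The medians of the 2 erythroid markers were 0.64, 1.57 and 0.99. The part of these markers in the members' values was not tested. No miRNA of the 210 was called in these comparisons (0%), where 15, 6 and 4 had an unadjusted p under 0.05. ANE is the only one of them on the same slide as CIA, and its 95% interval for rno-miR-29a was -1.07 to 0.49. Without scaling the MTX values were 0.13, 0.39 and 0.52 for rno-miR-29a, rno-miR-29b and rno-miR-29c. The median over all miRNAs then moved from 0.05 to 0.58.

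Within the slide that held the 34-day treatments, MS was compared with PLA and with MTX. MS against PLA gave -0.69 for rno-miR-29a (SE 0.36, 95% interval -1.46 to 0.09, limma adjusted p = 0.16), -0.09 for rno-miR-29b and -0.46 for rno-miR-29c (adjusted p = 0.28). In all 3 members both MS arrays lay below both PLA arrays, and 71.0% of all miRNAs tested were without overlap in one direction or the other. No miRNA was called (0% of 210), while 84 had an unadjusted p under 0.05, and 49 were called without either MS array of 1 hour and 91 without the second MS array of 34 days. Without the first MS array the values were -0.33, -0.13 and -0.34, and without scaling 0.36, 0.95 and 0.59 beside a median of 1.13 over all miRNAs. All 5 lymphocyte markers stood below 0 in MS against PLA, with a median of -0.94. There rno-miR-223 stood at 0.41, rno-miR-126 at 1.29 and the 2 erythroid markers at a median of -1.27. The part of these markers in the members' values was not tested. MTX against PLA gave -0.35, -0.11 and -0.13 (0% of 210 called, 5 with an unadjusted p under 0.05). MS against MTX gave -0.34, 0.02 and -0.32 (0% called, 37 with an unadjusted p under 0.05). The lymphocyte medians were -0.41 for MTX against PLA and -0.50 for MS against MTX. In the same order rno-miR-223 stood at 0.10 and 0.31, and rno-miR-126 at 0.87 and 0.42. The erythroid medians were -0.35 and -0.92. The part of these markers was not tested here either. ANE against NOCIA at 34 days, on the second slide, gave 0.20, 0.16 and 0.20 (0% called, 8 with an unadjusted p under 0.05).

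**Figure D2:**
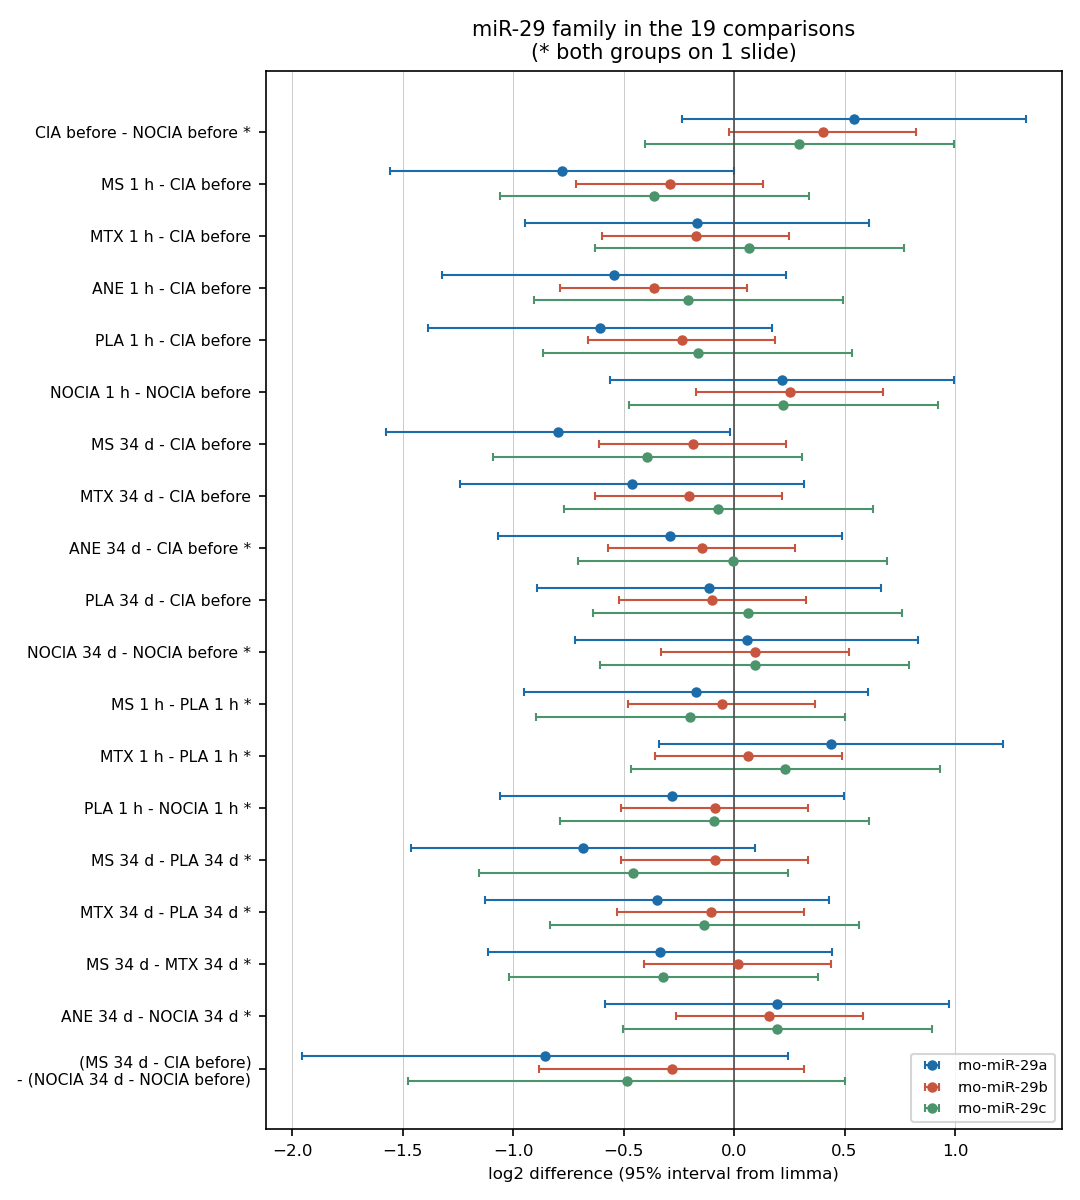
Log2 difference of each member (horizontal axis) with its 95% interval from limma in the 19 comparisons (vertical axis), where an asterisk marks comparisons within 1 slide. The interval of rno-miR-29a in MS at 34 days against CIA before therapy (-1.58 to -0.02) is the one that does not reach 0.

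The change since before therapy in each arthritic arm was also set against the change in healthy animals over the same time. For MS at 34 days the difference of changes was -0.85 for rno-miR-29a (SE 0.51, 95% interval -1.95 to 0.25, limma adjusted p = 0.47), -0.28 for rno-miR-29b and -0.49 for rno-miR-29c, with 1 of 210 miRNAs called (0.476%). Without scaling the last pair stood at 0.33 and 0.13, while the median over all miRNAs moved from 0.15 to 0.67. The other 7 such differences were added after the values were seen. All 24 member values over the 8 differences lay below 0, between -0.99 and -0.03, and each rests on the same CIA and NOCIA arrays before therapy. The added ones were computed under 1 scaling only. None was called, with limma adjusted p-values from 0.35 to 1.00. The shares of all miRNAs called at 1 hour were 0.476% for MS, 0% for MTX, 2.38% for ANE and 0.476% for PLA, and at 34 days 0.952% each for MTX, ANE and PLA. The lowest unadjusted p, 0.045, belonged to rno-miR-29b in ANE at 1 hour, with a value of -0.62.

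The members of 1 array share its scaling, so the log2 offset between them does not depend on a scaling factor. The offset of rno-miR-29b minus rno-miR-29a lay between -1.46 and -1.04 on 21 arrays. On the first MS array at 34 days it was -0.31, on the first MS array at 1 hour -0.43 and on the second PLA array at 1 hour -0.74. These 3 arrays are the ones lowest in rno-miR-29a and rno-miR-29c after scaling. Their replicates had offsets of -1.10, -1.23 and -1.16, inside the range of the other groups. The offset of rno-miR-29c minus rno-miR-29a ran from -3.67 in the second CIA array to -2.92 in the first MS array at 34 days, with a median of -3.28. An offset is set by the brightness of the probes and is no ratio of amounts, so only its movement between arrays is described.

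The same 3 arrays held the lowest summed levels of lymphocyte miRNAs. The summed level of the 5 lymphocyte markers miR-150, miR-342-3p, miR-181a, miR-181b and miR-146a was 11.16 (log2) on the first MS array at 34 days. It was 11.18 on the first MS array at 1 hour and 12.31 on the second PLA array at 1 hour. On the other 21 arrays it ran from 12.71 to 13.95. Of these, rno-miR-150, a miRNA of mature lymphocytes, stood at 9.55, 10.26 and 11.65 on the 3 arrays against 12.06 to 13.47 elsewhere. For rno-miR-181b the first MS array at 34 days, at 6.58, was not among the lowest. It stood above the first ANE array at 34 days (6.51) and the second ANE array at 1 hour (6.52). The myeloid marker rno-miR-223 stood at 13.57, 12.71 and 13.11 on the 3 arrays, within the 12.26 to 13.67 of the others. The platelet and endothelial miRNA rno-miR-126 stood at 7.58, 7.39 and 6.84 against 5.33 to 7.26. The other listed ones, rno-miR-126* and rno-miR-199a-3p, were detected on both MS arrays only, near the floor. The summed intensity of the detected miRNAs was highest on both MS arrays (519917 and 371061). The erythroid sum was 12.19, 13.45 and 13.81 on the 3 arrays, inside the 11.21 to 15.20 elsewhere. The miRNAs found in all leukocytes, miR-142-3p and miR-142-5p, summed to 13.83, 13.45 and 13.72, inside 13.27 to 14.04. The part of cell composition in the members' values was not tested.

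Among the 21 other arrays the offset of rno-miR-29b minus rno-miR-29a was also lower where the lymphocyte sum was higher, as a description chosen after the values were seen. Pearson's r was -0.72 and Spearman's rho -0.69 over these 21 arrays, which come from all 12 groups, and r was -0.77 without the 2 arrays farthest from the median sum. Within slides r was -0.66 (7 arrays), -0.85 (8 arrays) and -0.54 (6 arrays). For rno-miR-29c minus rno-miR-29a, r was -0.40 and rho -0.47 over the 21 arrays, with -0.12, -0.76 and -0.70 within slides. The arrays share slides and groups. Only the lymphocyte sum was set against the offsets in this way. Whether the other cell type markers or the summed intensity vary with them was not tested.

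**Figure D3:**
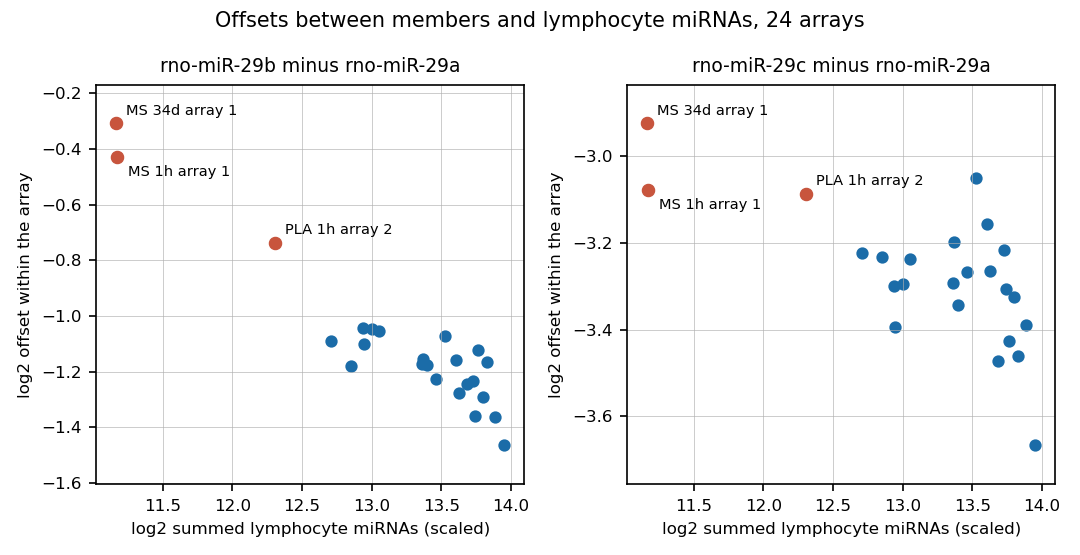
Log2 offset between members within each of the 24 arrays (vertical axes) against the log2 sum of the 5 lymphocyte miRNAs (horizontal axes), with 1 point per array and the 3 arrays lowest in rno-miR-29a in red. In the left panel these 3 lie at -0.31, -0.43 and -0.74, above the -1.46 to -1.04 of the other 21.

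Each member was read by 2 probes of 10 spots. Over the arrays the unscaled log2 values of its probes had a Pearson's r of 0.98 or more. Before scaling, the log2 difference between the probes of rno-miR-29a stayed between 1.27 and 1.48 over the arrays, and that of rno-miR-29c between 0.26 and 0.41. For rno-miR-29b it ran from 0.63 on the first MS array at 1 hour to 1.00 on the second CIA array. That range of 0.37 stands beside the 0.73 of its level over the arrays. For rno-miR-29a and rno-miR-29b the probe difference was smallest on the 3 arrays set apart by their offset. In rno-miR-29a it was 1.27 (first MS, 34 days), 1.31 (first MS, 1 hour) and 1.28 (second PLA, 1 hour). In rno-miR-29b it was 0.67, 0.63 and 0.76 in the same order. The next smallest were 1.35 and 0.77. Whether this bears on the offsets was not tested. In MS at 34 days against CIA, the probes of rno-miR-29a gave -0.74 and -0.82, those of rno-miR-29c -0.44 and -0.36, and those of rno-miR-29b -0.04 and -0.27. No probe alone gave a call in the 19 comparisons.

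The other strands of the hairpins were close to the limit of detection. rno-miR-29c*, cut from the other arm of the Mir29c hairpin, was detected on 10 of 24 arrays at log2 levels from 2.76 to 3.75. rno-miR-29a* was detected on 5 arrays between 2.53 and 2.71, rno-miR-29b-2* on 1 and rno-miR-29b-1* on none. Only rno-miR-29a* and rno-miR-29c* were tested, and neither was called in the 19 comparisons, with adjusted p-values no lower than 0.67 and 0.15. Hairpins are annotated on the opposite strand over 3 of the miR-29 hairpins, Mir3556a over Mir29a, Mir3587 over Mir29b1 and Mir3556b over Mir29c. Their mature sequences are shown because they are the exact complement of part of the members, with the seed in capitals.
rno-miR-3556a: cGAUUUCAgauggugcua
rno-miR-3587: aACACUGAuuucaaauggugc
rno-miR-3556b: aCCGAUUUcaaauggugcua
These are fully contained in the reverse complements of rno-miR-29a, rno-miR-29b and rno-miR-29c, in that order. Each has its own probes on the array and none was detected on any of the 24 arrays. They were added to the account after their values were seen.

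Within the family rno-miR-29a and rno-miR-29c varied most alike over the 12 group means, with Pearson's r of 0.92. For rno-miR-29a and rno-miR-29b r was 0.69, and for rno-miR-29b and rno-miR-29c 0.66, where the median over all pairs of the 132 miRNAs was 0.18. The pair that varied most alike comes from different chromosomes and differs in sequence by C10U, while rno-miR-29b, made at both places, stood further from each. Uptake of one member by the probes of another was not tested, so the likeness of rno-miR-29a and rno-miR-29c carries that limit. No miRNA was closer to rno-miR-29c than rno-miR-29a, whereas 4 miRNAs were closer to rno-miR-29a than rno-miR-29c.

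The miRNAs most like rno-miR-29a among the 129 others detected on all arrays were rno-miR-532-5p (r = 0.98), rno-miR-342-3p (0.94), which is abundant in lymphocytes, and rno-miR-30e* (0.93). Most like rno-miR-29b were rno-miR-30e (0.95), rno-miR-140, a miRNA known for its role in cartilage (0.76), and rno-miR-361 (0.76). Most like rno-miR-29c were rno-miR-30e* (0.90), rno-miR-532-5p (0.90) and rno-miR-7a-1* (0.89). Strands of 1 hairpin were thus among the nearest to different members, rno-miR-30e to rno-miR-29b and rno-miR-30e* to the other two. The 12 points share 3 slides and 1 scaling. On the 3 arrays low in lymphocyte miRNAs rno-miR-532-5p, which ran from 6.18 to 6.76 on the others, stood at 5.97 (first MS array at 34 days), 5.61 (first MS array at 1 hour) and 5.87 (second PLA array at 1 hour).

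**Figure D4:**
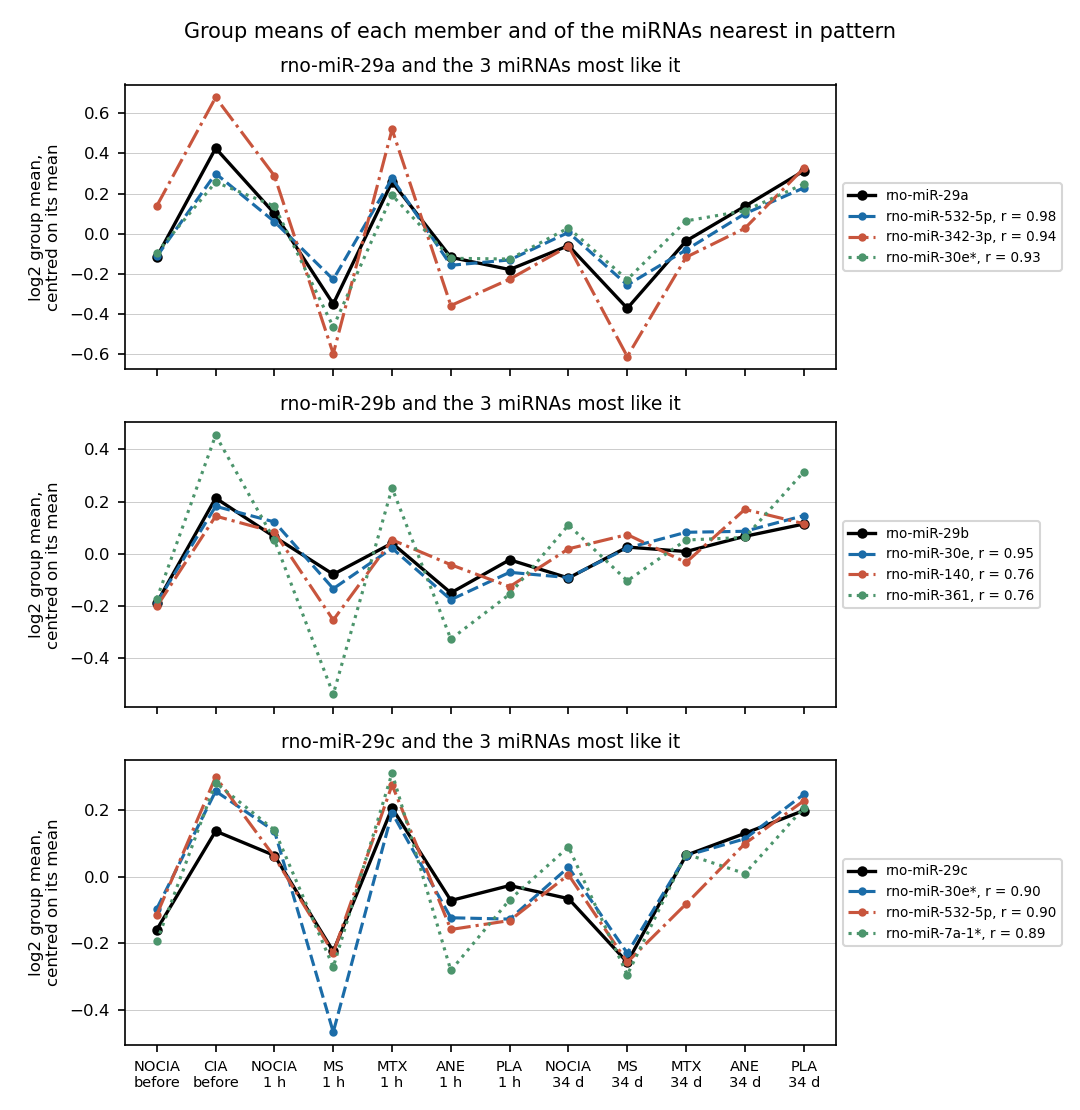
Log2 group means of each member and of the 3 miRNAs most like it (vertical axes, each centred on its own mean) over the 12 groups (horizontal axis). rno-miR-29a follows rno-miR-532-5p (r = 0.98) with dips at MS 1 h and MS 34 d, while rno-miR-29b follows rno-miR-30e (r = 0.95) without a dip at MS 34 d.

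Other miRNAs with known roles in matrix and in T cells were counted beside the family. Of 20 miRNAs listed for matrix and fibrosis 11 were tested, and of 14 listed for T-cell regulation 11 were tested, 4 of which also serve as leukocyte markers here. In MS at 34 days against CIA before therapy 2 of the matrix list were called, both higher in MS. These were rno-miR-141 (0.91, limma adjusted p = 0.038), of the epithelial miR-200 family, and rno-miR-26a (0.61, adjusted p = 0.038), a miRNA that limits growth. Of the T-cell list rno-miR-17-5p (0.86, adjusted p = 0.038), of a cluster that promotes cell growth, and rno-miR-326 (1.26, adjusted p = 0.040), known for promoting T helper 17 cells, were called higher. With 2 of 11 called, each list stood near the 19.0% called among all 210 miRNAs. All of these calls ended under the alternatives named above that left 0 miRNAs called, among them leaving out the first MS array. The median of the matrix list was 0.05 and of the T-cell list 0.12 beside 0.16 over all 210 miRNAs, against -0.39 for the members. In the other 18 comparisons no miRNA of either list was called. Over the 19 comparisons the medians ran from -0.08 to 0.21 for the matrix list and from -0.09 to 0.22 for the T-cell list.

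The liver miRNA rno-miR-122 was called lower in CIA than in NOCIA before therapy (limma adjusted p = 0.0021). Its level was 7.76 and 7.73 (log2) on those arrays, and it was detected on neither CIA array. It was also called lower in NOCIA at both later times than before therapy, being detected on 1 of 2 arrays at 1 hour (3.85) and on neither at 34 days. In ANE at 1 hour, where it was called higher than in CIA, it stood at 8.96 and 5.43. No fold is given, because the levels of undetected miRNAs are set by the floor. Its part in the members' values was not tested.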

How the data were processed

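Per the labels, PBMC came from a Ficoll gradient and their total RNA, kit-purified, received the dye Cy3. The deposited scanner intensity values come, per the file headers, from Agilent Feature Extraction 10.7.3.1, background-corrected and not normalised between arrays. Each miRNA's spots were summed there to a total intensity with a detection flag. All 12046 values of undetected miRNAs equalled their listed error (within 0.001). The authors also deposited a log2 table of the same arrays, used here as an alternative only. Their methods name the AgiMicroRNA package for summarising raw signals, and the submitters' processing notes name RMA.

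Total intensities were scaled to the 75th percentile over the 132 miRNAs detected on all arrays (factors 0.452 to 1.42), floored at 5.76 (2.53 in log2) and logged. Detection on 3 or more arrays kept 210 miRNAs, which were fitted with limma 3.58.1 in R 4.3.3 (12 residual degrees of freedom, two-sided). Groups follow the sample titles. Nothing says that the 2 arrays of a group came from separate animals or pools, so p-values measure the spread between arrays. Their number limits the precision. No exact test of 1 miRNA can reach 0.05 with 2 arrays a side.

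The members and lists were chosen with earlier results of these data known. Named miRNAs are the members, the other strands of their hairpins, the 3 miRNAs detected on all arrays most like each member over group means, and called miRNAs of the lists. The matrix, T-cell and cell type lists were set by hand. Of the listed names, miR-155 and miR-486 had no row of exactly that name. The alternatives were other scalings, spot signals, normexp (offset 50), filters, floors, the study's threshold (fold over 2, unadjusted p under 0.05), the replicate block, each probe alone and leaving out each array. Sequences and positions are RefSeq's. Fits were tested on simulated data with noise drawn independently for each miRNA and array. Shifts shared by the miRNAs of an array or slide were not simulated.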

Additional observations from a re-analysis of the deposited data

How the results depend on the processing

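No member was called in the 19 comparisons, and this held under all alternatives except those given here. Without scaling 2 members were called in MS at 34 days against CIA before therapy (rno-miR-29b at 1.01 and rno-miR-29c at 0.80, opposite in sign to the values reported) and 1 in MS against PLA at 34 days (rno-miR-29b at 0.95). Leaving out 1 array gave 0 to 2 members called in MS at 1 hour against CIA and 0 to 1 in MS at 34 days against CIA. The replicate number as a block gave 0 members called in each comparison. Replicate numbers share no animals. Their deviations had a median correlation of -0.03 over 66 pairs of groups, and the block raised the miRNAs called in MS at 34 days against CIA from 40 to 61. That count ran from 0 (scaling over all miRNAs, scaling to the median, no filter, only the arrays compared) through 8 (quantile), 65 (detected on all arrays), 70 (authors' table) and 73 (normexp) to 132 (no scaling). In MS against PLA at 34 days it was 0, and 1 (no floor), 31 (study's threshold), 36 (detected on all arrays), 124 (no scaling) or 412 (no filter). These counts are out of 210 miRNAs, but out of 132 for those detected on all arrays and out of 677 without a filter. Of the 677, 432 were detected on no array. The within-array offset of rno-miR-29b minus rno-miR-29a moved under quantile normalisation to 0.22 in MS at 1 hour against CIA, 0.21 in MS at 34 days against CIA, 0.14 in CIA against NOCIA and 0.17 in MS against PLA at 34 days, from 0.48, 0.61, -0.14 and 0.60. That of rno-miR-29c minus rno-miR-29a was 0.076 in the authors' table for MS against PLA at 34 days, from 0.23. The cause was not tested. Counts over all miRNAs that each alternative tested moved by over 1.5 times in 98 of 247 values under alternatives other than leaving out an array. Over other scalings and signals, 78 of 399 member values changed sign, 36 of them without scaling. The 0.54 of rno-miR-29a in CIA against NOCIA had a 95% interval of -0.24 to 1.32, which holds both 0 and differences of a larger size.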
